A study of Mus musculus with 10 samples.

Results

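The genes described here are 10 members of the Bcl2 family, which sets whether a cell starts the mitochondrial pathway of apoptosis. They were taken by symbol from the 26335 rows of the expression table, and all 10 were found and passed the filter on low values, a mean log2 CPM above 0, as did 12306 genes in all. CPM expresses the reads of a gene relative to all reads of the same library, so that libraries of unequal depth can be compared. There were 3 pro-survival members (Bcl2, Bcl2l1 and Mcl1) and 7 pro-death members, of which 5 are BH3-only genes (Bcl2l11, Bbc3, Pmaip1, Bid and Bad) and 2 are effectors (Bax and Bak1). RNA was sequenced from mSCLC-2405 cells, 1 mouse small cell lung cancer line that arose from a primary lung tumour after conditional deletion of genes that include Rb1 by an adenovirus carrying Cre. Both groups therefore carried these deletions, and both were grown in RPMI medium with 10% FBS. The control group, 5 libraries, was cultured with the solvent DMSO for 48 h, and the stiripentol group, 5 libraries, with 250 μM stiripentol, an antiseizure drug, for 48 h. The comparison asks how the transcripts of the family differed between these groups.

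The family works by binding among its own proteins at the outer mitochondrial membrane. Bax and Bak1 form pores there, cytochrome c leaves through the pores, and the apoptosome and the caspases follow. The proteins of Bcl2, Bcl2l1 (BCL-XL) and Mcl1 hold the effectors and the BH3-only proteins, while the BH3-only proteins of Bcl2l11 (BIM), Bbc3 (PUMA), Pmaip1 (NOXA), Bid and Bad block the pro-survival proteins or activate the effectors. In small cell lung cancer BCL2 and MCL1 are known as proteins on which the survival of the cells can depend. Much of the control of this family lies in protein turnover, phosphorylation and cleavage, which RNA does not show.

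With stiripentol, Mcl1 was 1.63-fold lower and Pmaip1, whose protein binds that of Mcl1, was 2.02-fold higher. These were the 2 of 10 members that were called, that is, had an adjusted p below 0.05 (limma, Benjamini-Hochberg adjustment over all genes tested). Of the genes tested, 27.7% were called, 14.1% as lower and 13.6% as higher, so the share of the members was near that of all genes. The called members were 1 of 3 pro-survival members, lower, and 1 of 7 pro-death members, higher. The median log2 change was -0.70 over the pro-survival members, the value of Mcl1 itself, and -0.06 over all genes tested. Over the pro-death members it was 0.25, the value of Bax, which was not called. Bcl2l1 (0.02), Bid (-0.99) and Bad (-0.24) had the opposite sign to the median of their own group of members. Mcl1 and Pmaip1 were also the 2 members whose groups did not overlap, against 27.2% of the genes tested.

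In both groups the libraries formed 2 clusters, which the labels do not name, and this touched most members. One cluster, called the pair here, held controls 4 and 5 and stiripentol libraries 1 and 2, and the other, called the trio, held controls 1 to 3 and stiripentol libraries 3 to 5. Correlations between libraries across genes were 0.983 to 0.997 within a cluster of controls and 0.995 to 0.998 within a cluster of stiripentol libraries, and 0.920 to 0.939 between the clusters of a group. The clusters of both groups were matched by their size alone. The paper prints the controls in another order than the sample records, and in that order the controls that lack the lower value for genes without reads come first, as stiripentol libraries 1 and 2 do, but that order was not used here. Further, the correlation of the cluster differences between the groups was 0.211 across genes, which share their libraries. Genes without reads had a log2 CPM of -4.82 in controls 1 to 3 and of -4.74 in the other 7 libraries. The table was therefore normalized in 2 sets. Comparisons with controls 1 to 3, as in the trio, cross these sets, and those with controls 4 and 5 alone do not. In the trio, the effects of stiripentol and of the set cannot be told apart. Totals were 22375625 reads in control 5 and 55015760 to 65299372 in the other libraries, and members had between 238 and 18792 reads per library. The median log2 CPM of the genes tested was 4.77 and 4.87 in stiripentol libraries 1 and 2 and 5.11 to 5.20 in the other 8, so the median log2 change was -0.25 in the pair and 0.08 in the trio. The labels do not say whether the libraries came from separate cultures, so p-values measure only the spread between these libraries, which may be technical.

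Markers of the line and of other cells were examined in the same libraries. Of 11 neuroendocrine markers, 8 were analysed here and 6 of these stayed under 1 CPM in every library, leaving Ncam1, which rose by 0.46 on the log2 scale, and Uchl1, whose log2 CPM was -0.85 to 1.53 and which was not called. Of 6 fibroblast markers tested, 4 were lower with stiripentol, among them Pdgfrb (log2 change -1.49) and Col3a1 (log2 change -5.71), and the summed level of the list was 405 to 697 CPM in control and 152 to 186 CPM in stiripentol libraries. The summed level was 6.61 to 18.7 CPM in control and 59.0 to 104 CPM in stiripentol libraries for leukocyte markers, where Cd68 rose by 3.21 on the log2 scale while Ptprc stayed at or near no reads. For tuft cell markers it was 2.11 to 7.18 and 25.4 to 59.9 CPM, with Avil higher by 5.01 on the log2 scale, and for epithelial markers 9.09 to 16.6 and 2.01 to 4.91 CPM, with Foxj1 lower (log2 change -2.02). Of 5 tuft cell markers only Avil was tested, and 3 stayed under 1 CPM in every library. Of 7 epithelial markers, 4 were analysed here, of which only Foxj1 was tested and 2 stayed under 1 CPM. Of 7 leukocyte markers, 5 were analysed here, of which 2 were tested and 3 stayed under 1 CPM. All 4 endothelial markers, Pecam1 being the highest of them, stayed under 1 CPM in every library, with a summed level of at most 1.35 CPM. The part of these differences in the results on the Bcl2 family was not tested, and in bulk RNA fewer cells of a type and less RNA per cell cannot be told apart. Rb1 had a log2 CPM of 2.02 to 4.57 and was not called. Reads outside the deleted part of a gene are still counted, so this value does not check the deletion.

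The DNA just before a transcript start of 4 members is shown because these are the members whose transcripts the comparison turned on. They were Mcl1, which was called, and Bcl2, Bbc3 and Bid, which differed most between the clusters. Each line holds the 250 bases before a transcript start of RefSeq (GRCm38.p6), 5′ to 3′ on the strand of the gene, with the GC box GGGCGG, or its complement on the other strand, in capitals. The windows are chr3:95658471-95658720 (+) for Mcl1, chr1:106714291-106714540 (-) for Bcl2, chr7:16309333-16309582 (+) for Bbc3 and chr6:120916825-120917074 (-) for Bid. The reference holds 3 starts for Bbc3, and the window shown lies inside the span of that gene, which begins at position 16308393.
Mcl1: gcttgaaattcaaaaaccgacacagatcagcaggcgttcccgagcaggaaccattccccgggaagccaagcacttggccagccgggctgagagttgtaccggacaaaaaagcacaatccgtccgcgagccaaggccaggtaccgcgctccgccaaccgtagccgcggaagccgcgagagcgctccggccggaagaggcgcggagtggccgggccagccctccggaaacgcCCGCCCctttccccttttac
Bcl2: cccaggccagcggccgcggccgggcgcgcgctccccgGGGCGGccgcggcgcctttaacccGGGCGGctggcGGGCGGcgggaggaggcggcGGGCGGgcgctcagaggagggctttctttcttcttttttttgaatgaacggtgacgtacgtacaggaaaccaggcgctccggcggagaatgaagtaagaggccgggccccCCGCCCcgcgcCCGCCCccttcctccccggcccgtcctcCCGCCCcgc
Bbc3: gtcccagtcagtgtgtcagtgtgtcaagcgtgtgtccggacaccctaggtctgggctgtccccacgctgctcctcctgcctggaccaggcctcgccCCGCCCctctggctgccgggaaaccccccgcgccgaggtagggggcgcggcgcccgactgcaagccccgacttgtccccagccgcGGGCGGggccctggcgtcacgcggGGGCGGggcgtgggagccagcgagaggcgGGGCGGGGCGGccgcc
Bid: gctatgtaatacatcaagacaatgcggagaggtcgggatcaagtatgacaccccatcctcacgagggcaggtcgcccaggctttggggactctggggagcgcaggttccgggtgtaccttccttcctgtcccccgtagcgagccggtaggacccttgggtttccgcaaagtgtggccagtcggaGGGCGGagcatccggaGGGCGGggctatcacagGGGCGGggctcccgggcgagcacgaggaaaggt
The window of Mcl1 held 1 GC box and had a GC content of 64.4%. There were 7 GC boxes and 74.8% GC in that of Bcl2, 5 and 76.4% in that of Bbc3, where a pair of boxes overlap, and 3 and 63.6% in that of Bid. The median GC content was 52.4% over the 32851 windows of the reference, and 32.7% of them held a GC box. The other motifs searched on both strands were the CRE TGACGTCA (in 1.55% of all windows), the C/EBP-ATF element TGATGNAA (3.45%), the FOXO element GTAAACA (3.17%), the E-box CACGTG (6.02%), the AP-1 site TGANTCA (6.75%) and CCAAT (33.8%), and none of them was in these 4 windows. Of the 9 members with a window in the reference, Bcl2l11 had 1 FOXO element and 1 CCAAT, and Bax had 1 E-box. GC boxes were also in the windows of Bcl2l11 (3), Bad (3) and Bax (2), while those of Bcl2l1 and Bak1 held none. Pmaip1 had no entry. Such matches describe letters, not binding.

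Among the pro-survival members, Mcl1 was lower in every stiripentol library. Its log2 CPM was 8.17, 8.24, 8.06, 7.96 and 7.95 in controls 1 to 5 and 7.27, 7.63, 7.29, 7.31 and 7.37 in stiripentol libraries 1 to 5. The lowest control lay above the highest stiripentol library, stiripentol 2, and the groups did not overlap. The means were 8.08 ± 0.13 and 7.37 ± 0.15 (SD, n = 5), and Mcl1 fell by 0.70 on the log2 scale (SE 0.10, limma, adjusted p = 0.0011). An exact permutation test of this gene over 252 arrangements gave an unadjusted two-sided p of 0.0079, the smallest that 5 libraries against 5 allow. Groups that do not overlap always give this value, so it adds nothing to that observation. Leaving out 1 library at a time gave log2 changes of -0.77 to -0.66, all called. Mcl1 encodes a short-lived protein that holds BAK1 and BIM, and its gene lies on chromosome 3 from 95658788 to 95663176 on the plus strand (GRCm38).

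Bcl2, the founding pro-survival gene, showed the clusters most plainly. Its log2 CPM was 5.64, 5.60 and 5.77 in controls 1 to 3 but 4.59 and 4.60 in controls 4 and 5. It was 2.95 and 3.34 in stiripentol libraries 1 and 2 but 5.18, 5.09 and 5.15 in stiripentol libraries 3 to 5. Stiripentol libraries 1 and 2 lay below every control, and the other 3 lay between the clusters of the controls. The means were 5.24 ± 0.59 and 4.35 ± 1.10 (SD, n = 5), and the log2 change of -0.89 (SE 0.49) did not pass the test (limma, adjusted p = 0.19). Bcl2 spans 176 kb of chromosome 1 from 106538178 to 106714274 on the minus strand.

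Bcl2l1 encodes BCL-XL, which holds BAX and several BH3-only proteins. Levels of Bcl2l1, as log2 CPM, were 6.97, 6.95, 7.12, 6.77 and 6.76 in controls 1 to 5 and 6.64, 6.86, 7.08, 7.05 and 7.01 in stiripentol libraries 1 to 5. The groups overlapped widely, with the pair libraries lower than the trio libraries in both. The log2 change was 0.02 (SE 0.12, 95% confidence interval -0.24 to 0.27, limma, adjusted p = 0.93).

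**Figure D1:**
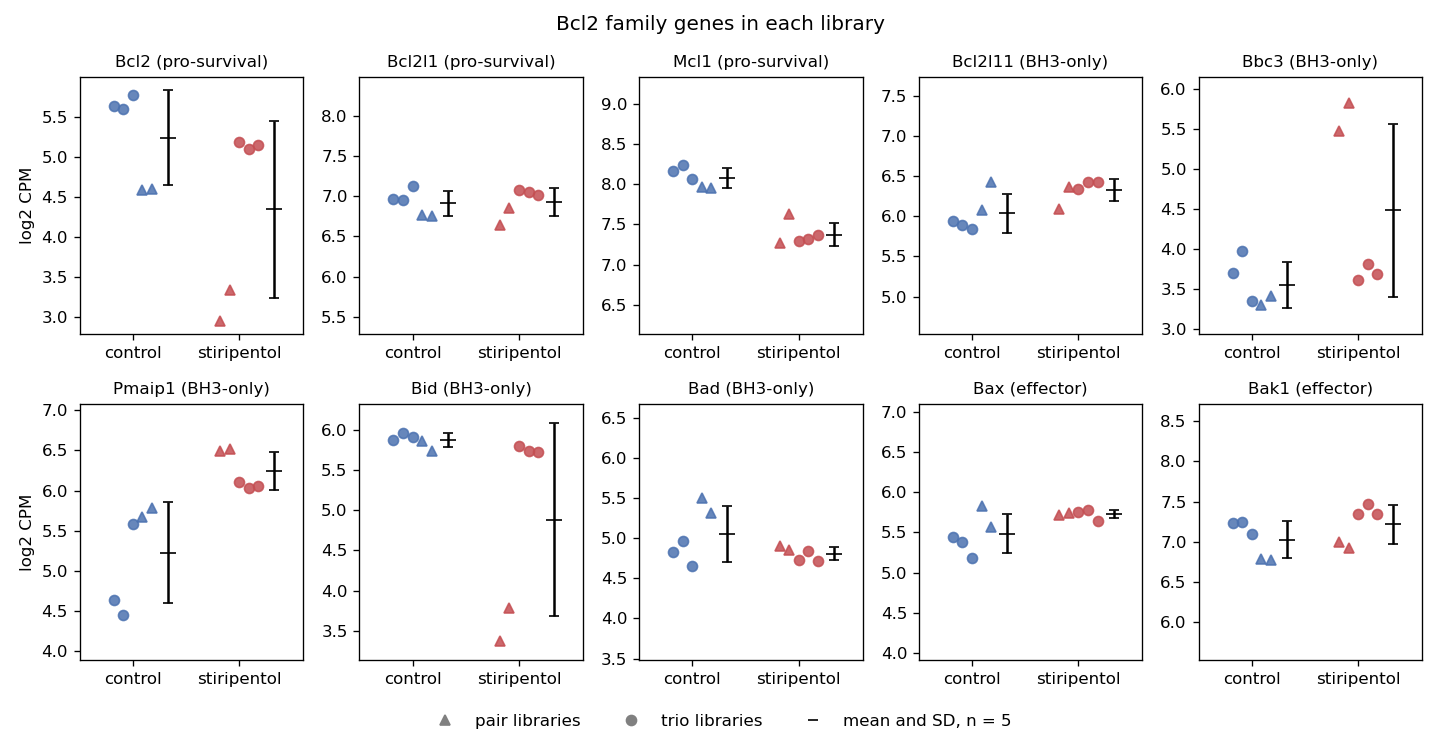
Log2 CPM (vertical axes, which differ in range between panels) of the 10 Bcl2 family genes in each of the 5 control (blue) and 5 stiripentol (red) libraries. Triangles are the pair libraries, circles the trio libraries, and the black bar is the group mean with its SD (n = 5). The groups are apart for Mcl1 and Pmaip1, while for Bcl2, Bbc3 and Bid stiripentol libraries 1 and 2 stand away from the other 8.

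Of the BH3-only genes, Pmaip1 was higher in every stiripentol library. Its log2 CPM was 4.63, 4.45, 5.59, 5.67 and 5.78 in controls 1 to 5 and 6.49, 6.51, 6.11, 6.04 and 6.06 in stiripentol libraries 1 to 5. All stiripentol libraries lay above all controls, and controls 1 and 2 were lower than the other 3. The means were 5.22 ± 0.63 and 6.24 ± 0.24 (SD, n = 5), and Pmaip1 rose by 1.02 on the log2 scale (SE 0.27, limma, adjusted p = 0.020). The exact permutation test gave an unadjusted two-sided p of 0.0079, again the smallest possible and fixed by the lack of overlap. Leaving out 1 library at a time gave log2 changes of 0.82 to 1.16, all called, with adjusted p = 0.04995 without stiripentol 2 at the upper end (limma). Pmaip1 encodes NOXA, a BH3-only protein that binds MCL1 with preference and is known to bring about its degradation. Within a library, the log2 ratio of Pmaip1 to Mcl1 was -3.79 to -2.17 in control and -1.31 to -0.78 in stiripentol libraries, a mean difference of 1.72, given as a description since both genes were called. The lack of overlap of both genes fixed this separation. In the other ratios computed the groups overlapped. Bax to Bcl2 was -0.59 to 1.25 in control and 0.49 to 2.77 in stiripentol libraries, and Bbc3 to Bcl2 was -2.42 to -1.18 and -1.57 to 2.52.

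Bbc3 encodes PUMA, which binds all pro-survival proteins. Bbc3 had a log2 CPM of 3.70, 3.98, 3.35, 3.31 and 3.42 in controls 1 to 5, and of 5.48, 5.82, 3.61, 3.81 and 3.69 in stiripentol libraries 1 to 5. Stiripentol libraries 1 and 2 lay above every control, and the other 3 lay within the range of the controls. The log2 change over all libraries was 0.93 (SE 0.44, limma, adjusted p = 0.13). Bid encodes the protein that caspase-8 cleaves and that links the death receptors to the mitochondria. Bid had a log2 CPM of 5.87, 5.97, 5.91, 5.87 and 5.74 in controls 1 to 5, and of 3.38, 3.78, 5.80, 5.73 and 5.72 in stiripentol libraries 1 to 5. The first 2 stiripentol libraries lay far below the controls, and the other 3 were close to the lowest control. The log2 change was -0.99 (SE 0.47, limma, adjusted p = 0.14). The exact permutation test gave Bid an unadjusted two-sided p of 0.016, so that 3 members were under 0.05 by this test, where 39.1% of the genes tested were.

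Bcl2l11 encodes BIM, which binds all pro-survival proteins and activates the effectors. Levels of Bcl2l11, as log2 CPM, were 5.95, 5.89, 5.84, 6.09 and 6.43 in controls 1 to 5, and 6.09, 6.36, 6.35, 6.43 and 6.43 in stiripentol libraries 1 to 5. Control 5, the library with the fewest reads, was as high as the highest stiripentol libraries. The log2 change was 0.29 (SE 0.13, limma, adjusted p = 0.12), and without control 5 it was 0.39 and called (limma, adjusted p = 0.031, with 0.031 to 0.23 over the 10 libraries left out in turn). Bad encodes a BH3-only protein that growth factor signalling keeps phosphorylated. Its log2 CPM was 4.83, 4.96, 4.65, 5.50 and 5.32 in controls 1 to 5, and 4.90, 4.85, 4.73, 4.84 and 4.72 in stiripentol libraries 1 to 5. Controls 4 and 5 were higher than all other libraries, and the log2 change was -0.24 (SE 0.17, limma, adjusted p = 0.29).

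The effectors moved little when all libraries were compared. Bax had a log2 CPM of 5.45, 5.38, 5.18, 5.84 and 5.57 in controls 1 to 5, and of 5.72, 5.74, 5.76, 5.78 and 5.64 in stiripentol libraries 1 to 5. The stiripentol libraries lay close together within the upper part of the range of the controls. The log2 change was 0.25 (SE 0.13, 95% confidence interval -0.03 to 0.53, limma, adjusted p = 0.16). Bak1 had a log2 CPM of 7.23, 7.24, 7.09, 6.78 and 6.78 in controls 1 to 5, and of 7.00, 6.92, 7.35, 7.46 and 7.34 in stiripentol libraries 1 to 5. In both groups the trio libraries were higher than the pair libraries, and the log2 change was 0.19 (SE 0.15, 95% confidence interval -0.13 to 0.51, limma, adjusted p = 0.34).

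Compared within the clusters, more members differed. In the pair libraries, 2 against 2, 6 members were called, where 72.2% of all genes tested were called (limma). Bbc3 was 4.88-fold and Pmaip1 1.71-fold higher, while Bid was 4.68-fold, Bcl2 2.72-fold, Bad 1.45-fold and Mcl1 1.42-fold lower. In the trio libraries, 3 against 3 and across the normalization sets, 7 members were called, where 64.7% of all genes tested were called. Pmaip1 was 2.26-fold, Bcl2l11 1.42-fold, Bax 1.31-fold and Bak1 1.15-fold higher, while Mcl1 was 1.78-fold, Bcl2 1.44-fold and Bid 1.12-fold lower. Bcl2, Mcl1, Pmaip1 and Bid were called in the same direction in both clusters, 4 of 10 members against 34.2% of the genes tested. The values of the pair carry the lower median of stiripentol libraries 1 and 2. After each library was centred on its median, the log2 change of Mcl1 in the pair was -0.21 and was not called (limma, adjusted p = 0.12), and that in the trio was -0.90. With this centring, which was chosen after the values were seen, 5 members were called in the same direction in both clusters, where 36.3% of the genes tested were. Bcl2 and Bid were lower, and Pmaip1, Bcl2l11 and Bax were higher.

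**Figure D2:**
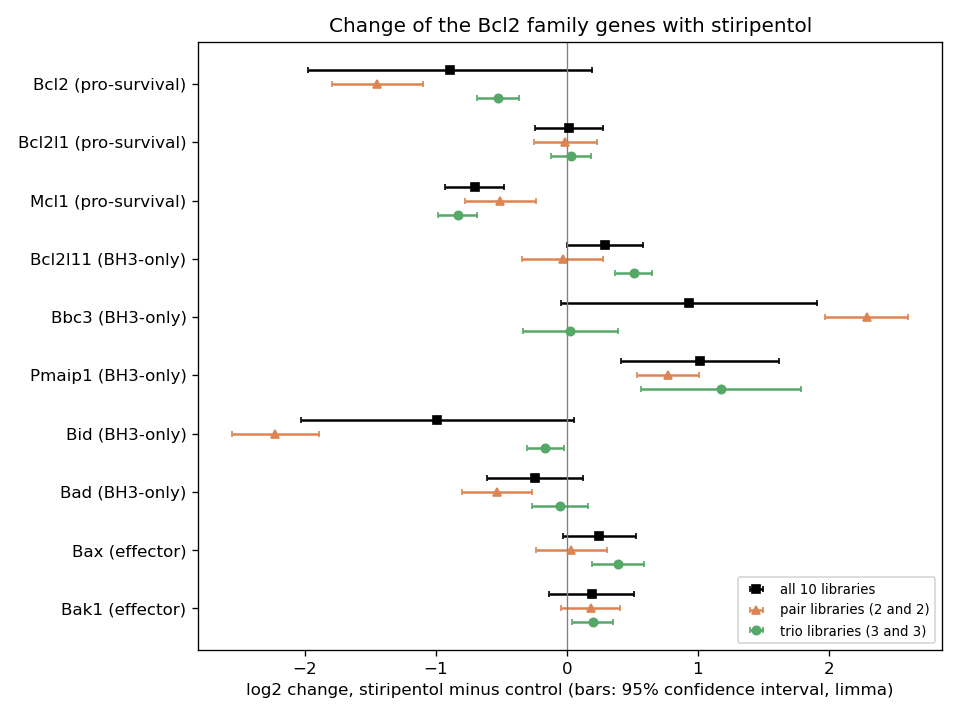
Log2 change (stiripentol minus control, horizontal axis) of each Bcl2 family gene with its 95% confidence interval from limma, over all 10 libraries (black squares), the pair libraries (orange triangles) and the trio libraries (green circles). Mcl1 lies below 0 and Pmaip1 above 0 in each comparison, while the changes of Bbc3 (2.29 and 0.03) and Bid (-2.23 and -0.17) differ between pair and trio.

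The change with stiripentol differed between the clusters for 5 members, Bcl2, Bcl2l11, Bbc3, Bid and Bad (limma interaction, adjusted p under 0.05), and for 63.3% of the genes tested. The clusters were found from these same values, so the interaction is no independent test. It also sets a change within a normalization set (pair) against a change across the sets (trio). The change in the pair minus that in the trio was 2.26 for Bbc3 (SE 0.24), -2.06 for Bid (SE 0.16), -0.92 for Bcl2 (SE 0.16), -0.54 for Bcl2l11 (SE 0.16) and -0.48 for Bad (SE 0.15), on the log2 scale. With quantile normalization 3 members differed, namely Bbc3 (2.69), Bid (-1.55) and Bcl2l11 (-0.37), and so did 59.9% of the genes tested. The difference between the clusters was 0.33 for Mcl1 (limma, adjusted p = 0.066) and -0.40 for Pmaip1 (95% confidence interval -1.18 to 0.37, limma, adjusted p = 0.34).

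**Figure D3:**
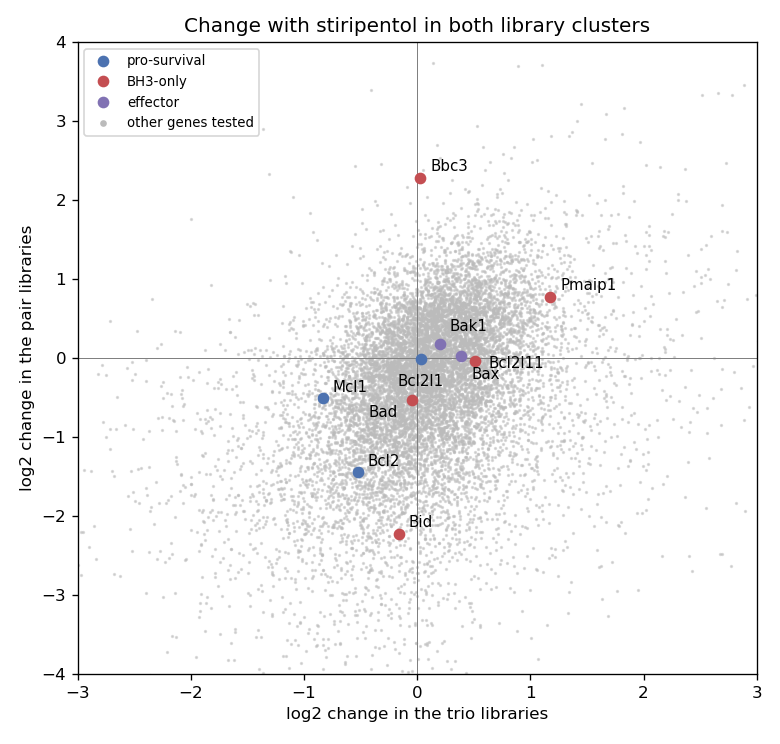
Log2 change with stiripentol in the trio libraries (horizontal axis) and in the pair libraries (vertical axis) for the 12306 genes tested (grey points) and the 10 Bcl2 family genes (coloured by role). The axes leave out 198 genes. Mcl1, Bcl2, Bid and Bad lie below 0 on both axes and Pmaip1, Bax and Bak1 above 0 on both, and Bbc3 lies near 0 in the trio and at 2.29 in the pair.

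Since the clusters were matched by size alone, they were also matched the other way. Mcl1 and Pmaip1 were called in the same direction under both matchings, 2 of 10 members against 21.1% of the genes tested. For these genes the direction was fixed in advance, since their groups did not overlap. Stiripentol libraries 1 and 2 against controls 1 to 3, across the normalization sets, gave log2 changes of -0.71 for Mcl1 and 1.61 for Pmaip1. Stiripentol libraries 3 to 5 against controls 4 and 5 gave -0.63 and 0.34. For Bcl2 the same comparisons gave -2.52 and 0.55, so the direction of Bcl2 depended on which clusters were set against each other. Bbc3 was higher in both, by 1.97 and 0.34 on the log2 scale. The log2 change of Bid was -2.34 in the first and -0.05 in the second (limma, adjusted p = 0.51).

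The rest of the apoptosis pathway was read from 13 lists with 65 genes tested, of which stiripentol libraries had 9 lower and 4 higher (limma), where 14.1% and 13.6% of all genes tested were called lower and higher. The change differed between the clusters for 42 of these 65 genes (limma interaction, adjusted p under 0.05), and for 63.3% of all genes tested. Among the other relatives of Bcl2, 8 of 15 genes were tested and 1 was called. This was Bmf, a BH3-only gene, whose log2 CPM was 5.09 to 6.99 in control, 2.36 and 3.17 in stiripentol libraries 1 and 2 and 4.85 to 4.93 in stiripentol libraries 3 to 5. Its log2 change was -1.88 (SE 0.59, limma, adjusted p = 0.038), and it was -4.17 in the pair and -0.35 in the trio. With the clusters matched the other way it was -2.48 for stiripentol libraries 1 and 2 and -2.04 for stiripentol libraries 3 to 5, and without the filter on low values Bmf was not called (limma, adjusted p = 0.069). Of the genes that act after the pores have formed, Apaf1, the scaffold of the apoptosome, was 1 of 3 called, with a log2 change of -0.58. The change of Apaf1 was -1.08 in the pair and -0.24 in the trio, and it was not called in both clusters. Among the 5 caspases tested, the executioner Casp6 fell by 0.58 on the log2 scale and Casp2 rose by 0.82. Aifm1, a mitochondrial flavoprotein that can leave the organelle in cell death, was 1 of 4 released proteins called (log2 change -0.62), and Dffb, the caspase-activated DNase, was 1 of 2 called in its list (log2 change -1.26). Xiap, which inhibits caspases, was 1 of 5 inhibitors called (log2 change -0.78). With the replicate number as a block, Xiap and Aifm1 were not called (limma, adjusted p = 0.073 and 0.072). Lower transcripts were measured for genes on both sides of caspase activity.

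Upstream of the family, Ddit3 (CHOP) and Atf4 were the 2 called genes among 7 transcription factors tested, where 27.7% of all genes tested were called. The log2 CPM of Ddit3 was 4.94 to 6.00 in control and 7.29 to 7.51 in stiripentol libraries, and that of Atf4 was 8.62 to 9.28 and 9.83 to 10.24. Ddit3 rose by 1.95 on the log2 scale (SE 0.17, limma, adjusted p = 9.6e-05) and Atf4 by 1.08 (SE 0.15, limma, adjusted p = 0.00082), and both were called in each cluster. Both encode factors of the integrated stress response, whose known target genes include BH3-only genes such as Pmaip1. In the list of genes for the turnover of the MCL1 protein, Usp13, a deubiquitinase of MCL1, was 1 of 7 called (log2 change -0.49), a call lost with the replicate number as a block and with quantile normalization (limma, adjusted p = 0.099 and 0.17). Vdac3, a channel of the outer membrane, was 1 of 5 called in its list, higher by 0.78 on the log2 scale. Of 7 death receptor and adaptor genes, 0 were called over all libraries with limma or voom and 1 with quantile normalization. With a term for the cluster 2 were called, in the pair 6 and in the trio 4. Of all 12306 genes tested, 72.2% were called in the pair, 64.7% in the trio and 6244 genes with the cluster term. In the comparison of all libraries 1 of the 7 had an unadjusted p under 0.05, as did 5130 of all genes tested (limma). This was Cflar (log2 change -1.03, limma, adjusted p = 0.071), a caspase-8 inhibitor named here after its value was seen. The median log2 change over the 65 genes was -0.03.

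**Figure D4:**
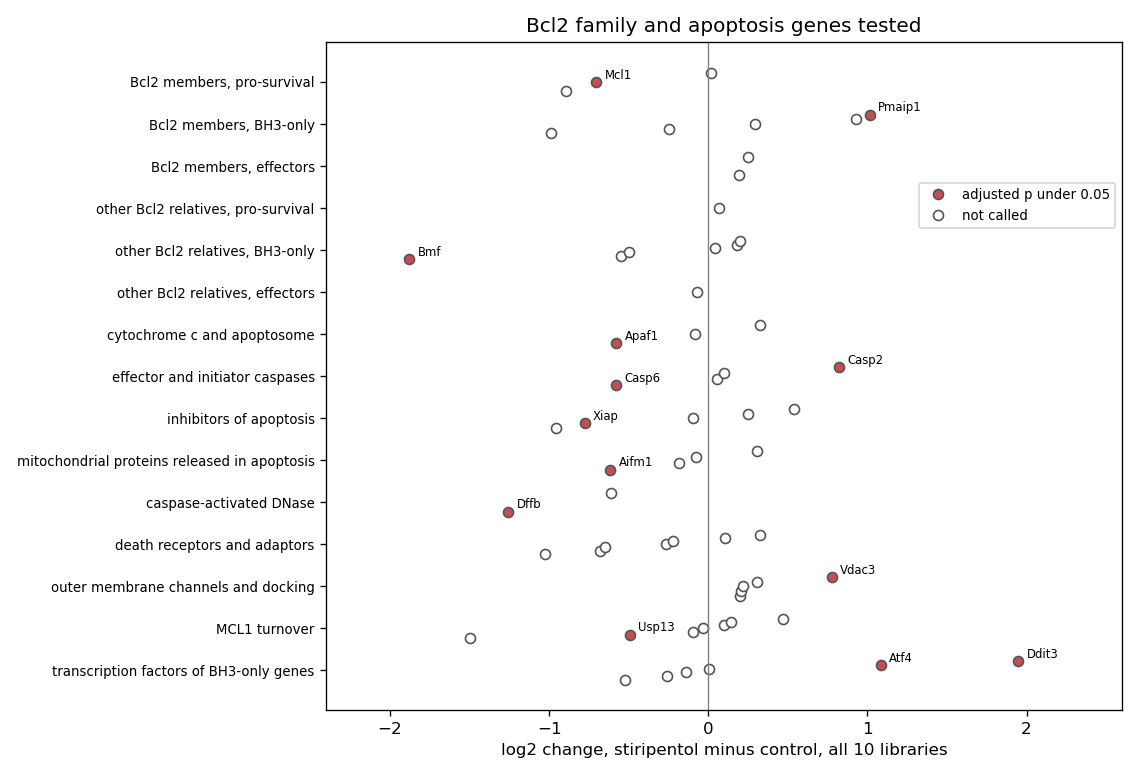
Log2 change with stiripentol over all 10 libraries (horizontal axis) for tested genes of the Bcl2 family and of the other apoptosis lists (rows), without genes that are not reported here. Filled points with names passed the test (limma, adjusted p under 0.05) and open points did not; Ddit3, Atf4 and Pmaip1 are the called genes above 1, and Bmf and Dffb those under -1.

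Reads of members can be shared with overlapping genes, since the sources used here do not say whether counting used the strand. Bid overlaps Bcl2l13, Bad overlaps Gpr137 and Bak1 overlaps Ggnbp1, all on the other strand, and Bcl2, Bid and Bax overlap non-coding or predicted genes. Gpr137 was higher with stiripentol (log2 change 0.49, limma, adjusted p = 0.042), and Bcl2l13 (0.18) and Ggnbp1 (-0.24) were not called. The other 5 members overlap no annotated gene. On GRCm38, Bcl2l1 and Bcl2l11 lie on chromosome 2, Bid on 6, Bbc3 and Bax on 7, Bak1 on 17 and Bad on 19.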

How the data were processed

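The authors deposited 1 table with the log2 CPM of 26335 genes in 5 control and 5 stiripentol libraries, and the columns were matched to samples by title. A prior of 0.837 to 2.38 reads per library, scaled to its size, had been added before the logarithm, so a log2 change understates that of low genes. The table also holds group means, p-values, q-values and ratios of the authors' own comparison, which were not used. Their methods name GENAVi for the normalization and a Lexogen QuantSeq 3′ mRNA kit, but TruSeq total RNA is the library type in the sample records. The submitters' processing notes name the build mm10. The aligner, annotation and strand setting are not given in the sources used here. Whole reads could be recovered from 100% of the values (within 0.1 read). Read totals describe counting error only.

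The log2 values were tested with limma 3.58.1 in R 4.3.3 (lmFit, eBayes with a mean-variance trend, two-sided) over 12306 genes with a mean log2 CPM above 0, with Benjamini-Hochberg adjustment and no covariate. Single genes were also compared by exact permutation over 252 arrangements (Python 3.11.15). Clusters of libraries were found within each group by average linkage. Replicate libraries of a cluster differed by a chi-square per gene of at least 6.75, so none was counted as a copy. The test was checked on simulated data drawn without library clusters or normalization sets, so the check does not cover these features.

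The members and the gene lists were chosen with earlier results of these data known. Named genes were all members, the targeted gene Rb1, every called gene of a pathway list with up to 4 called, and in a marker list the gene with the highest mean and the called gene that changed most. Ptprc, Uchl1 and the overlapping genes were added with their values in view. The alternatives were to omit each library in turn, a block for the replicate number, a cluster term, each cluster alone, cluster means, 2 other scalings, other filters and pseudocounts, limma voom on the recovered reads, the exact test and a minimum change. Centring within clusters and the other matching of clusters were added after the values were seen. Gene positions are from GENCODE M21 (GRCm38), and promoter windows from RefSeq (GRCm38.p6). The results of some genes and of 1 list are not reported here, though the list counts include them.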

Additional observations from a re-analysis of the deposited data

Results flagged for a closer look

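In 2 of the 20 sets of 5 libraries formed by 10 members and 2 groups, 1 library stood apart from the other 4 by Dixon's criterion, where chance gives about 1. Stiripentol 2 had the highest log2 CPM of Mcl1 in its group, 7.63, and its gap to the next library was 0.7285 of the range of the group. Stiripentol 1 had the lowest log2 CPM of Bcl2l11, 6.09, with a gap of 0.7581 of the range. Mcl1 and Bcl2l11 were otherwise close together in the stiripentol libraries.

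The change with stiripentol differed between the pair and the trio libraries for 5 members. The change in the pair minus that in the trio, on the log2 scale, was -0.920 for Bcl2, -0.543 for Bcl2l11, 2.26 for Bbc3, -2.06 for Bid and -0.484 for Bad (limma interaction, adjusted p = 0.00046, 0.011, 1.3e-05, 1.6e-06 and 0.014). The clusters were matched by size, the interaction rests on values that also set the clusters, and the trio comparison crosses the normalization sets.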

How the results depend on the processing

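The count of called members was 2 with all libraries, 2 to 3 when 1 library was left out (the 3rd being Bcl2l11 without control 5), and 2 under other scalings, filters and pseudocounts and with voom. By the unadjusted exact test it was 3, with Bid. With an absolute log2 change of at least 1 it was 1, Pmaip1. It was 5 with a cluster term, 6 in the pair alone (against 72.2% of all genes tested) and 7 in the trio alone (against 64.7%). With 1 mean per group and cluster it was 0, as for all 12306 genes (limma), where 1116 genes and 1 member had an unadjusted p under 0.05. The replicate numbers of the sample records did not pair the libraries, with correlations of same-numbered libraries of -0.24 to 0.061. The paper numbers the controls in another order, so this check and the block hold for the records only. With the replicate block 1 member, Mcl1, and 8 of the 65 pathway genes were called, and Pmaip1 had an adjusted p of 0.076 (limma). Over the 10 alternatives that kept all libraries, the adjusted p was 0.00024 to 0.55 for Mcl1 and 0.0022 to 0.55 for Pmaip1, the highest being those of the cluster means. Of the pathway genes 13 were called with all libraries and 28 with the cluster term. Over all genes, 3414 were called with all libraries, 2082 with the replicate block and 6244 with the cluster term. The members whose change differed between clusters were 5, and 3 with quantile normalization.

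Of 260 changes of single members under the alternatives, 210 kept their direction and side of the threshold and 13 turned their direction. Bcl2 turned to 0.549 when the stiripentol trio was set against the control pair. Bcl2l1, with 0.016 in all libraries, ranged from -0.0225 to 0.0870 when 1 library was left out, and it was -0.0107 in the pair, -0.0301 in the centred trio and -0.262 in the stiripentol pair against the control trio. In that last comparison Bad was 0.0612 and Bak1 -0.228. Bcl2l11 was -0.0335 in the pair and Bbc3 -0.0365 in the centred trio. The cause of these turns was not tested. The members had at least 238 reads in each library.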
